A study of Mus musculus with 8 samples.

Results

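The genes described here are 7 genes of the MHC class II antigen presentation pathway, measured in lung cells of mice after long exposure to cigarette smoke (CS) or room air (RA). They were chosen by name and are Cd74, H2-Aa, H2-Ab1, H2-Eb1, H2-DMa, H2-DMb1 and Ciita, 7 of the 33,027 genes in the matrix, and all 7 were found. The study sequenced RNA of single cells from the right lungs of 8 mice, 4 CS and 4 RA. All 8 were C57BL/6 mice that carried Sftpc-CreERT2-mTmG, in which tamoxifen makes cells that use the Sftpc promoter, chiefly alveolar type II (AT2) cells, switch from a red to a green reporter, and all 8 received tamoxifen as young adults. CS mice then breathed the smoke of research cigarettes over the long term and RA mice room air for the same time. Each library held the cells of 1 mouse, remixed after sorting so that CD45+ immune cells were a small part beside CD45- cells, so the number of immune cells in a library says nothing of their number in the lung. The values below are transcripts per 10,000 in a cell, averaged over the cells of 1 type in 1 mouse, and n is the number of mice.

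MHC class II molecules display peptides from material that a cell has taken up, and CD4+ T cells recognise them. Dendritic cells, macrophages and B cells are the professional presenting cells and are known for high levels of these genes, but AT2 cells and some endothelial cells of the lung also carry them. Cd74 is the invariant chain, which guides new class II molecules to the compartment where peptides are loaded and blocks the groove until then. H2-Aa and H2-Ab1 are the alpha and beta chains of the I-A molecule. H2-Eb1 is the beta chain of I-E, and C57BL/6 mice are known to make no partner alpha chain for it, so that in this strain its transcript yields no I-E complex. H2-DMa and H2-DMb1 form the DM molecule, which exchanges the last fragment of the invariant chain for a peptide. Ciita is the transactivator that switches the whole set on, and it does so through factors bound to the X and Y boxes of class II promoters.

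On GRCm38, H2-DMa (chromosome 17, 34119541 to 34139101), H2-DMb1 (34153072 to 34160230), H2-Ab1 (34257689 to 34269419), H2-Aa (34282744 to 34287823, minus strand) and H2-Eb1 (34305867 to 34316674) lie in the major histocompatibility complex, with H2-DMb2 between the DM genes and H2-Ob between H2-DMb1 and H2-Ab1. Ciita lies on chromosome 16 (10480059 to 10528418). Of the 7 members, 4 matched the RefSeq promoter table for GRCm38.p6. The 250 bases before each start were searched on both strands for CTNGNAAC, the letters that the X boxes of these promoters share, and for GATTGG, the reversed CCAAT box at the core of the Y box. Both sets of letters were settled after the sequences had been seen. H2-Aa, H2-Eb1 and H2-DMb1 each held both, on the gene's own strand, with 35, 34 and 35 bases from the start of the first to the start of the second. In H2-DMb1 the matches were CTAGTAAC and GATTGG. Of 32,851 promoters in the table, 10.9% held the X letters, 14.6% the Y letters, 1.63% both, and 0.0731% (24 promoters) both on the gene's strand with 10 to 40 bases between their starts. The stretches from 120 to 21 bases before the start of H2-Aa (chr17:34287844-34287943, minus strand), H2-Eb1 (chr17:34305747-34305846, plus strand) and, for comparison, H2-Ob (chr17:34238785-34238884, plus strand), a class II chain that AT2 and capillary cells hardly held (below), are shown because they carry the pair, with the matches in capitals. They read 5′ to 3′ on the gene's strand.
H2-Aa: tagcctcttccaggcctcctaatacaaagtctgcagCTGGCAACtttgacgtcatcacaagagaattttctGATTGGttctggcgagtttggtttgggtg
H2-Eb1: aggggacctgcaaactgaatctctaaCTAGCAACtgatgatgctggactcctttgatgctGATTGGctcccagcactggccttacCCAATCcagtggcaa
H2-Ob: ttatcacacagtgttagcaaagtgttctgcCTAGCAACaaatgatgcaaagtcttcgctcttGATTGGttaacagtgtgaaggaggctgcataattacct
Neither of the 2 start sites listed for H2-DMa held the X letters. A match describes the letters only and shows no binding.

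The 40,074 cells used fell into 32 cell types of the authors' annotation, among them 1,881 AT2 cells and 9,988 general capillary (gCap) cells, labelled EC_capillary_B. Libraries held 2553 to 6371 of these cells, with a median of 4254 to 6473 transcripts per cell. Listed markers were checked against the labels: 5 of 5 AT2 markers, 4 of 4 gCap markers, 4 of 4 B cell markers and 4 of 4 alveolar macrophage markers were highest in their own type, as were 3 of 4 aerocyte markers (Tbx2 was higher in pericytes), 3 of 4 markers of the cells labelled M and 2 of 3 of classical monocytes. Only 1 of 4 markers of conventional dendritic cells type 2 (cDC2) was, and the M cells were led by C1qa, C1qb and C1qc. Of 40,909 barcode sequences, 197 occurred in more than 1 library. Both CS libraries labelled male held Xist and both labelled female held the Y-linked Ddx3y, whereas the RA libraries matched their labels, so no comparison by sex was made. RA mouse F1 stood apart in class II levels, as described below, and the smoke differences in AT2, gCap and B cells and alveolar macrophages are also given without it.

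AT2 cells were 7th of the 32 types in Cd74, a gene on chromosome 18 (60803848 to 60812652, GRCm38), and gCap cells 11th. Cd74 was highest in mature dendritic cells, at 385 ± 28.5 transcripts per 10,000 (SD, n = 5 mice, 33 cells), followed by the M macrophages at 257 ± 77.4 (n = 7), type 1 conventional dendritic cells (cDC1) at 236 ± 42.8 (n = 7), cDC2 at 186 ± 59.6 (n = 8) and B cells at 132 ± 30.7 (n = 8). Plasmacytoid dendritic cells held 55.6 ± 25.9 (n = 4) and AT2 cells 45.3 ± 9.60 (n = 8), an order that only 2 of 4 mice with both types showed. Alveolar macrophages held 29.3 ± 16.7 and classical monocytes 28.3 ± 15.3 (n = 8 each). Cells labelled as erythrocytes, which are known to lack class II, held 21.5 ± 15.9, with single mice from 0.118 to 49.8. gCap cells held 16.8 ± 9.22 and venous endothelial cells 8.53 ± 5.35 (n = 8 each). The lowest of all was the neighbouring capillary type, the aerocytes, at 0.415 ± 0.204 (n = 8). Of 31 pairs of neighbours in this order, the mean within-mouse difference exceeded its SD in 6. AT2 cells and the types ranked directly above and below them were not among the 6, nor were gCap cells and the erythrocyte-labelled cells above them.

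**Figure D1:**
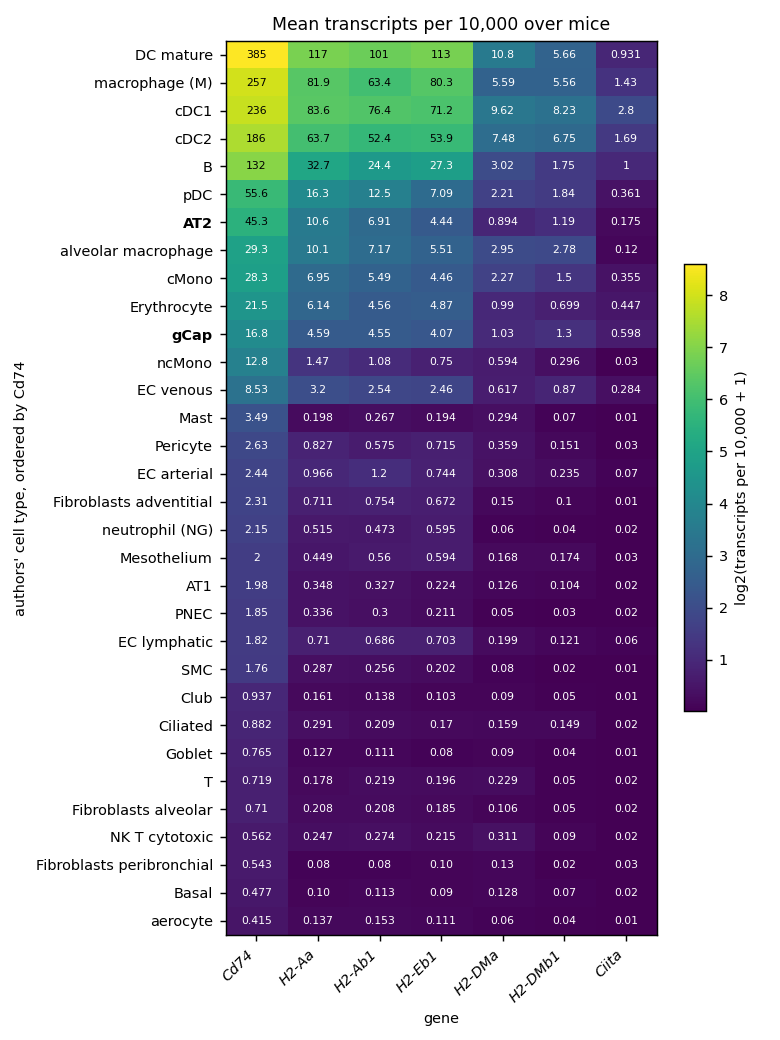
Mean transcripts per 10,000 over mice with at least 5 cells for the 7 genes (columns) in 32 cell types (rows, ordered by Cd74), with colour on the log2(value + 1) scale and the value printed in each field. The bright block of dendritic cells, macrophages and B cells is followed by AT2 cells, with Cd74 at 45.3, while gCap cells, at 16.8, and aerocytes, at 0.415, lie far apart.

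The other members reached 1 transcript per 10,000 in fewer of the 32 types than Cd74, which did so in 23. At 0.1, Cd74 was counted in 32 types, H2-Ab1 in 31, H2-Aa in 30 and H2-Eb1 in 29. H2-DMa was counted in 26, H2-DMb1 in 20 and Ciita in 12. H2-Aa averaged at least 1 transcript per 10,000 in 13 types, H2-Ab1 in 14, H2-Eb1 in 12, H2-DMb1 in 10, H2-DMa in 9 and Ciita in 4. These 4 were cDC1 at 2.80 ± 1.25 (n = 7), cDC2 at 1.69 ± 1.11 (n = 8), the M macrophages at 1.43 ± 0.849 (n = 7) and B cells at 1.004 ± 0.227 (n = 8). gCap cells were 6th of 32 in Ciita, at 0.598 ± 0.271 (n = 8), and AT2 cells 11th, at 0.175 ± 0.0621 (n = 8). Over the 22 types with enough cells to be tested between exposures, the profile of each member across types was set against the mean profile of the other class II genes Cd74, H2-Aa, H2-Ab1 and H2-Eb1. Pearson's r was 0.96 for Cd74, between 0.98 and 0.99 for the 3 chains, 0.93 for H2-DMa and H2-DMb1 and 0.85 for Ciita, as a description over types that share libraries. Among 6,841 other genes, the 10 most alike were Pkib (r = 0.78), Kynu (0.75), Cpsf2 (0.75), Ifi30 (0.75), Trim25 (0.73), Cd22 (0.73), Arhgap17 (0.73), Erp29 (0.72), Bcl11a (0.71) and Snx30 (0.71). Among these 22 types, which leave out the dendritic cells, 7 of the 10 were highest in B cells, and Ifi30 and Erp29 in classical monocytes. Ifi30 was at 7.87 there but at 15.1 in cDC2.

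Within the alveolar epithelium, class II transcripts were higher in AT2 than in AT1 cells. AT1 cells, the flat cells that AT2 cells can renew, held Cd74 at 1.98 ± 1.21 (n = 8) against the 45.3 of AT2 cells. All 7 members passed the test between the types, higher in AT2 cells (limma with mouse as a block, adjusted p from 1.66e-13 for Cd74 to 3.68e-07 for Ciita). Since most genes differ between such types, 26.8% of the 9,750 genes tested were called higher in AT2 cells. A gene was tested when at least 10% of the cells of either type held it, and H2-Ab1, H2-Eb1, H2-DMb1 and Ciita, in 9.64%, 8.41%, 9.23% and 2.36% of AT1 cells, were tested only through AT2 cells, where they are high. Of the 1,225 genes that entered in this way 91.4% were called higher in AT2 cells, so the direction of these 4 was largely set by the filter, whereas Cd74, H2-Aa and H2-DMa passed it in both types (19.8% of such genes called higher). On the log2(value + 1) scale the differences were 4.01 (SE 0.134) for Cd74, 3.07 (SE 0.113) for H2-Aa, 2.55 (SE 0.110) for H2-Ab1 and 2.12 (SE 0.0941) for H2-Eb1. Each held in 8 of 8 mice.

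In the capillary endothelium, gCap cells, which repair the capillary bed, held all 7 members above aerocytes, the large cells of gas exchange (limma with mouse as a block, adjusted p from 1.38e-08 to 1.73e-06, 34% of 7,116 genes called higher in gCap cells). Only Cd74 was in over 10% of the cells of both types (33.1% of such genes called higher). The other 6, in 1.11% to 6.72% of aerocytes, were tested only through gCap cells, as were 532 genes of which 99.1% were called higher there, so their direction was largely set by the filter. Cd74 differed by 3.38 (SE 0.268) on the log2 scale, H2-Aa by 2.19 (SE 0.164), H2-Ab1 by 2.18 (SE 0.141), H2-Eb1 by 2.09 (SE 0.162) and Ciita by 0.64 (SE 0.0668). In mouse F1, where gCap cells held only 1.45 Cd74 transcripts per 10,000, aerocytes held 0.172, so the order stood there too.

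Set against B cells of the same mice, AT2 and gCap cells held less of every member. Cd74 in AT2 cells was a median of 38.3% of its level in B cells, with single mice from 13.1% to 52.5% (log2 difference -1.52, SE 0.162, limma with mouse as a block, adjusted p = 3.00e-07). In gCap cells it was a median of 14.1%, from 0.790% in mouse F1 to 32.9% (log2 difference -3.16, SE 0.370, adjusted p = 4.81e-06). H2-Eb1 in AT2 cells was a median of 19.8% of the B cell level and H2-Aa 37.5%. H2-DMb1 came closest, at a median of 70.1% in AT2 cells (lower in 7 of 8 mice, log2 difference -0.33, SE 0.0904, adjusted p = 0.00292) and 80.9% in gCap cells (lower in 6 of 8, log2 difference -0.27, SE 0.113, adjusted p = 0.0407). The H2-DMb1 call in gCap cells was lost without C2, C5, F1, F3 or M3 in turn (limma adjusted p from 0.0569 to 0.112). Its near-copy H2-DMb2 was at 3.36 in B cells but at 0.0892 in AT2 and 0.0128 in gCap cells. The H2-DMb1 shares therefore leave out a part of the DM beta transcripts that B cells hold. All 7 members were called lower in both types, beside 46.5% of 9,407 genes for AT2 cells and 42.1% of 7,554 for gCap cells.

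Alveolar macrophages, in contrast, were not uniformly above the structural cells. Cd74 was higher in AT2 cells, in 7 of 8 mice (log2 difference 0.90, SE 0.225, limma with mouse as a block, adjusted p = 0.00200), and the DM genes were lower, in 8 of 8 (H2-DMa -1.03, SE 0.0848, adjusted p = 1.26e-08; H2-DMb1 -0.72, SE 0.101, adjusted p = 8.73e-06). H2-Aa, H2-Ab1, H2-Eb1 and Ciita did not pass, with log2 differences of 0.29 (SE 0.169), 0.15 (SE 0.154), -0.07 (SE 0.155) and 0.07 (SE 0.0345). H2-Aa passed without CS mouse D2 (0.43, limma adjusted p = 0.0236) while Ciita, which did so without RA mouse M1 (0.10, adjusted p = 0.0186), was tested only through AT2 cells (70.5% of such genes were called higher there). Of 9,639 genes tested, 30.1% were called higher and 38.3% lower in AT2 cells. In gCap cells, Ciita was higher than in alveolar macrophages in 8 of 8 mice (0.50, SE 0.0633, adjusted p = 1.82e-06). It was tested only through gCap cells (6.70% of alveolar macrophages held it), as were 1,163 genes of which 99.7% were called higher there. Its direction was thus largely set by the filter. Cd74 (-0.73, SE 0.201), H2-Aa (-0.81, SE 0.203), H2-DMa (-0.94, SE 0.110) and H2-DMb1 (-0.65, SE 0.124) were lower in gCap cells. H2-Ab1 and H2-Eb1 did not pass there, at -0.39 (SE 0.193) and -0.23 (SE 0.163), although H2-Ab1 did without F1 (-0.54, limma adjusted p = 0.0152) or D5 (-0.52, adjusted p = 0.0233), and 40.3% of 8,220 genes were called higher and 35.7% lower in gCap cells.

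cDC2 and M macrophages were too few for the minimum of 20 cells per mouse. With at least 10 cells, cDC2 could be compared in 7 mice and M macrophages in 5, a choice made after the cell numbers were known. In AT2 cells, Cd74 was then a median of 28.8% of the cDC2 level and 19.0% of the M level, and in gCap cells 11.1% and 6.70%. All 7 members were called lower in both types in each of these 4 comparisons (limma with mouse as a block, largest adjusted p 0.0264), beside 33.9% and 28.8% of all genes called lower in AT2 and gCap cells than in cDC2, and 23.2% and 21.1% than in M macrophages. The authors' cell types were themselves defined on these transcriptomes, which holds for every comparison between types here.

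Between AT2 and gCap cells, 4 of the 7 members were called. AT2 cells held more Cd74 (1.63, SE 0.237, adjusted p = 2.35e-05), H2-Aa (1.10, SE 0.114, adjusted p = 8.58e-07) and H2-Ab1 (0.54, SE 0.102, adjusted p = 2.45e-04) in 8 of 8 mice by limma with mouse as a block. Ciita was lower in AT2 cells in 8 of 8 mice (-0.43, SE 0.0601, adjusted p = 1.79e-05), where it was a median of 32.8% of the gCap level. H2-Eb1 (0.16, SE 0.115), H2-DMa (-0.09, SE 0.0588) and H2-DMb1 (-0.06, SE 0.0626) did not pass. Of 9,392 genes tested, 31.8% were called higher and 52.7% lower in AT2 cells, and after quantile normalization all 7 members were called, with both DM genes then higher in AT2 cells (0.16 and 0.22).

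The ratio of H2-Eb1 to H2-Aa differed between cell types. The kit counts molecules from their 3′ end, so the ratio of 2 genes is compared only between types. AT2 cells held 0.422 ± 0.0335 H2-Eb1 transcripts for each H2-Aa transcript (SD, n = 8), with single mice from 0.373 to 0.465. gCap cells held 0.882 ± 0.0618 and B cells 0.827 ± 0.0468, and their lowest mice, at 0.809 and 0.764, lay above the highest AT2 value. The difference held in 8 of 8 mice against each, with exact two-sided sign-flip p = 0.00781, the smallest that 8 mice allow (0.0188 adjusted over the 12 ratio tests made). The difference between gCap and B cells did not pass (exact sign-flip p = 0.102, mean difference 0.0554 with SD 0.0823), and alveolar macrophages, at 0.545 ± 0.148, lay above AT2 cells in 6 of 8 mice (exact p = 0.0391, adjusted 0.0586, or 0.0469 without F1). Among the other presenting cells, the ratio was 0.834 ± 0.107 in cDC2, 0.852 ± 0.0892 in cDC1 and 0.977 ± 0.0912 in the M macrophages, and in venous endothelium it was 0.776 ± 0.0683.

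Ciita was also set against H2-Aa, the only chain for which this ratio was tested. gCap cells held 0.129 ± 0.0153 Ciita transcripts for each H2-Aa transcript, venous endothelial cells 0.0902 ± 0.0132, B cells 0.0316 ± 0.00850 and AT2 cells 0.0168 ± 0.00431 (SD, n = 8 each). The gCap ratio lay above that of AT2 cells and of B cells in 8 of 8 mice (exact two-sided sign-flip p = 0.00781 for each, adjusted 0.0188), and no gCap mouse, the lowest being 0.111, overlapped either type. The lowest gCap ratio was that of mouse F1, at 0.111, beside 0.111 to 0.152 in the other mice. For Cd74 over H2-Aa, AT2 cells, at 4.44 ± 0.665, exceeded alveolar macrophages, at 3.03 ± 0.454, in 8 of 8 mice (exact sign-flip p = 0.00781, adjusted 0.0188), and gCap cells, at 3.37 ± 0.945, in 7 of 8 (exact p = 0.0156, adjusted 0.0268). Without F1 the mean difference from gCap cells was 0.591 in place of 1.07 (adjusted p = 0.0469, exact sign-flip over 7 mice).

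**Figure D2:**
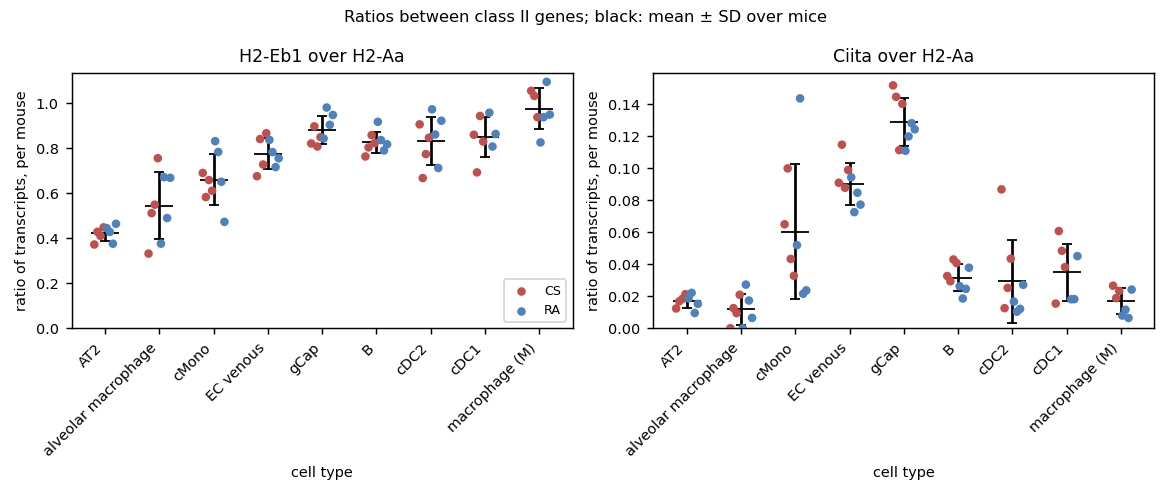
Ratio of H2-Eb1 to H2-Aa transcripts (left) and of Ciita to H2-Aa transcripts (right) in each mouse, as points coloured by exposure, in 9 cell types, with the mean ± SD over mice in black. AT2 cells sit lowest on the left, at 0.422, and gCap cells highest on the right, at 0.129.

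At the level of single cells, nearly every AT2 cell carried Cd74. At least part of a corrected Cd74 count was present in 98.7% of AT2 cells (11,684 UMIs in the median cell), 74.99% of gCap cells (3833), 97.9% of B cells (4055) and 12.8% of aerocytes (4623). With each cell thinned to 2000 UMIs, which left out 43 AT2, 896 gCap, 277 B and 301 aerocyte cells, the shares were 96.6%, 68.9%, 99.0% and 4.57%. Aerocytes were taken as background because they held the least Cd74, so that their share is lower is no result. Thinned shares of H2-Aa were 77.1% in AT2 and 51.2% in gCap cells, and those of Ciita 3.21% and 9.82%, against 0.305% in aerocytes. Across AT2 cells of 1 mouse, Cd74 varied with H2-Aa, at Pearson's r of 0.68 to 0.78 over the 8 mice, and with Ciita at 0.08 to 0.31. In gCap cells the first of these ran from 0.33 to 0.55. These correlations are across cells of 1 library, share its depth and describe the cells only.

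Markers of immune cells were low in both types, apart from Cd79b in AT2 cells. The summed level of the 15 listed immune markers was 0.603 to 1.30 in AT2 cells of CS mice and 0.848 to 1.39 in those of RA mice, and 0.195 to 0.450 and 0.256 to 0.488 in gCap cells, against 80.1 to 111 in B cells. Cd79a, the B cell receptor chain, did not exceed 0.228 in AT2 or 0.0653 in gCap cells of any mouse. Cd79b, the partner chain of that receptor, was 0.361 ± 0.0447 in AT2 cells (SD, n = 8, found in 33.2% of cells), 0.0263 ± 0.0171 in AT1 cells (1.95%), 0.0410 ± 0.0165 in gCap cells and 11.8 ± 2.04 in B cells. It was called higher in AT2 than in AT1 cells (log2 difference 0.41, limma adjusted p = 1.19e-10), tested only through AT2 cells, and its part in the class II levels of AT2 cells was tested only by leaving cells out, as follows. Each Cd79a transcript stood beside 219 or more Cd74 transcripts in AT2 cells, beside 264 to 898 in gCap cells of CS mice and 23.7 to 956 in those of RA mice, and beside at most 6.46 in B cells. In alveolar macrophages it stood beside 103 to 2047 in CS mice and 20.1 to 651 in RA mice. This ratio thus says nothing of RNA from macrophages, and the source of the transcripts was not tested with it. Cells with a corrected count of at least 0.5 for any of these markers were then left out, which kept 342 of 705 AT2 cells in CS and 632 of 1176 in RA mice, and 4214 of 4812 and 4541 of 5176 gCap cells. In the AT2 cells kept, Cd74 averaged 48.0 ± 5.70 over the CS mice and 40.6 ± 10.7 over the RA mice (SD, n = 4 each), beside 49.5 and 41.1 over all cells, and in gCap cells 17.8 and 16.04 beside 17.7 and 15.9.

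Further class II chains and costimulatory genes were scarce in AT2 and gCap cells beside B cells, apart from Cd40 in gCap cells. H2-DMb2, H2-Oa, H2-Ob and H2-Eb2 are further class II chains, of which H2-Oa and H2-Ob form a molecule that restrains DM. They were in 0.744% to 6.27% of AT2 cells, 0.0901% to 2.11% of gCap cells and 19.6% to 70.1% of B cells. They were thus tested only through B cells, as were genes of which 100% were called lower in AT2 and 92.3% lower in gCap cells, so their calls are not counted here. H2-Ob was 0.0145 in AT2, 0.0505 in gCap and 3.62 in B cells, and H2-DMb2, which is so alike to H2-DMb1 that their reads may have been divided unevenly, was 0.0892, 0.0128 and 3.36. Both chains were also far below the B cell level in alveolar macrophages (0.0292 and 0.0768) and M macrophages (0.309 and 0.0893). Low levels of both are thus not particular to AT2 and gCap cells. The costimulatory list held 7 genes, whose products act in the contact of presenting cells with T cells. Those of Cd274 and Pdcd1lg2 inhibit T cells. All 7 in AT2 cells, and all but Cd40 in gCap cells, were again tested only through B cells. Cd86 stood at 0.0922 in AT2 and 0.0114 in gCap cells against 7.58 in B cells. Cd40 was at 0.00657 in AT2 and 0.385 in gCap cells, against 0.822 in B cells and 0.0163 in alveolar macrophages. In gCap cells it was above aerocytes (log2 difference 0.23, SE 0.0316, limma adjusted p = 2.34e-05) but was tested only through gCap cells. Cd274, which encodes the inhibitory ligand PD-L1, was the only other gene of the list tested there, through aerocytes alone, and was called lower in gCap cells than in aerocytes (-0.13, SE 0.0275, limma adjusted p = 7.10e-04).

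The interferon gamma pathway is known to induce Ciita. Ifngr1, Ifngr2, Jak1, Jak2, Irf1 and Socs1 were each called lower in AT2 than in gCap cells, as were 52.7% of all genes tested. Irf1, a transcription factor that acts on the Ciita promoter, was 0.667 in AT2 and 4.12 in gCap cells, and Ifngr1, the receptor chain that binds interferon gamma, 0.313 and 1.82. Between gCap cells and aerocytes, Ifngr1, Jak1, Irf1 and Socs1 were called higher in gCap cells (34% of all genes were) and Ifngr2 lower (36.4%). Between AT2 and AT1 cells, Jak1, Irf1 and Socs1 were called higher in AT2 cells (26.8% of all genes were) and Ifngr1 and Ifngr2 lower (52.3%). Socs1 was tested only through gCap cells in the first of these comparisons and only through AT2 cells in the second. Of the 7 listed factors that bind class II promoters, 5, Nfya among them, were tested between gCap cells and aerocytes and none passed, and 6 of 7 were called lower in AT2 than in gCap cells, with a median log2 difference of -0.11, again beside 52.7% of all genes. Of the genes that process antigen and invariant chain, Ifi30, a lysosomal thiol reductase, was 2.09 in AT2 cells and 0.330 in AT1 cells (log2 difference 1.21, SE 0.0503, limma adjusted p = 2.51e-12). It was the only one of the 5 tested that was called higher, and the proteases Ctsl (-1.37, SE 0.0552), Lgmn (-0.42, SE 0.0497) and Sppl2a (-0.39, SE 0.0465) were called lower in AT2 than in AT1 cells. Ctss, the protease that trims the invariant chain in B cells and dendritic cells, was 0.0391 in AT2 and 0.0283 in gCap cells against 3.67 in B cells and 25.04 in alveolar macrophages. Ctsl, which is known to do this in thymic epithelium, was 1.10 in AT2, 4.45 in AT1, 2.82 in gCap cells and 3.48 in aerocytes. Cd44, the signalling partner of Cd74, was above AT1 cells in AT2 (0.79, SE 0.0497) and above aerocytes in gCap cells (0.50, SE 0.0406), where it was tested only through gCap cells.

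Smoke was then compared with room air in the 22 types that had at least 20 cells in at least 3 mice of each exposure. Among 101 combinations of member and type with enough cells carrying the gene, limma called 0, the smallest adjusted p being 0.0871, against 1.23% of all gene and type combinations. At an unadjusted p under 0.05 there were 22, 14 higher and 8 lower in CS, beside 15.2% of all combinations. With summed counts in place of averaged cells, 1 passed, Cd74 in B cells (adjusted p = 0.0298). The mice of the 2 exposures did not overlap in 8 combinations, 4 lower in CS and 4 higher, beside 4.67% and 6.01% of all combinations. The 4 lower ones were all in B cells. Those higher were H2-DMa in ciliated cells (9.28% of genes did so there) and goblet cells (7.24%) and H2-Ab1 and H2-Eb1 in mesothelial cells (6.86%).

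In AT2 cells, Cd74 was 44.2, 47.8, 56.5 and 49.6 transcripts per 10,000 in the CS mice and 23.9, 42.4, 48.4 and 49.8 in the RA mice. The groups overlapped, and the lowest value, in F1, stood alone. The log2 difference was 0.31 (SE 0.197, limma adjusted p = 0.757; exact two-sided permutation p = 0.286), and without F1 it was 0.08. H2-Aa was 10.9, 11.9, 14.1 and 10.8 in CS mice and 4.01, 9.35, 12.01 and 11.5 in RA mice, a log2 difference of 0.42 (SE 0.254, adjusted p = 0.746; exact p = 0.257) that became 0.11 without F1. All 7 members had fitted values above 0, with a median of 0.31 beside 0.00 over all 9,032 genes tested, and none passed, nor did any other gene (0% called, 7.43% at an unadjusted p under 0.05). Without F1 the 7 lay between 0.05 and 0.14. Exact permutation p-values of the members were 0.171 to 0.314, where 4 mice against 4 allow 0.0286.

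In gCap cells, Cd74 was 8.11, 14.4, 17.4 and 31.0 in the CS mice and 1.45, 23.1, 22.8 and 16.4 in the RA mice. The RA group held both the lowest value and 2 of the 3 highest, and the groups overlapped widely. The log2 difference was 0.44 (SE 0.685, limma adjusted p = 0.659; exact two-sided permutation p = 0.857). Without F1 it was -0.35, and H2-Aa (-0.07), H2-Ab1 (-0.11), H2-Eb1 (-0.20), H2-DMa (-0.09) and H2-DMb1 (-0.13) also turned below 0, while Ciita stayed above it, at 0.03. Without CS mouse D5, the highest, H2-DMa and H2-DMb1 also turned, to -0.02 and -0.03. So no direction was shown for smoke in gCap cells, although 10.3% of 6,556 genes were called in this type (0 with sequencing lane as a block or without D5, 29 without C2, 37 without D2 and 35 without F3). Of the 19 pathway genes tested there, 1 passed, Nfyb, a subunit of the factor that binds the Y box, lower in CS (0.302 ± 0.0488 against 0.417 ± 0.0268, SD, n = 4 each; log2 difference -0.12, SE 0.0326, limma adjusted p = 0.0449). This is 1 of 19 beside 10.3% of all genes, and the call was lost with the lane block and without D5, where no gene of the type passed. None of the 23 tested in AT2 cells, the 32 in B cells or the 28 in alveolar macrophages passed.

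**Figure D3:**
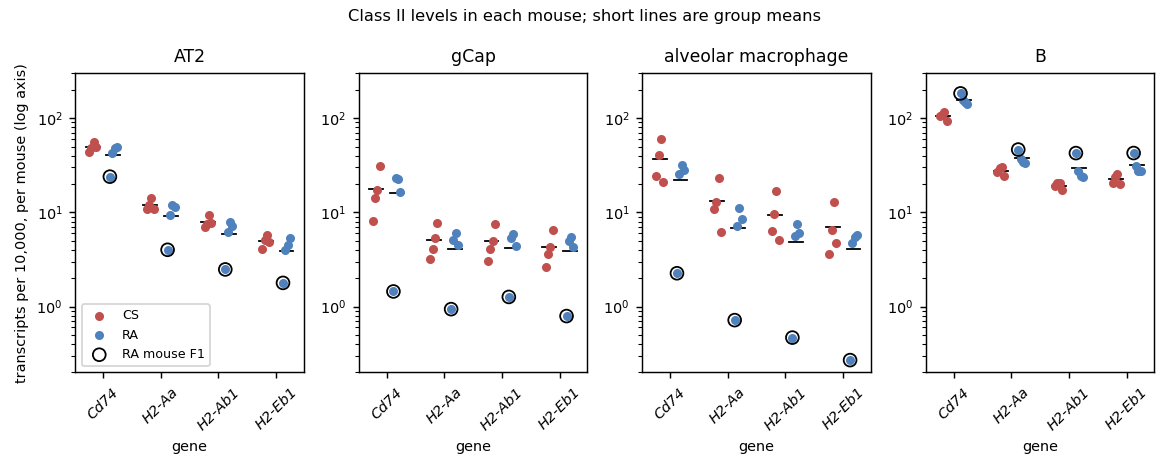
Transcripts per 10,000 of Cd74, H2-Aa, H2-Ab1 and H2-Eb1 in each mouse, on a log axis, in AT2 cells, gCap cells, alveolar macrophages and B cells, with CS mice in red, RA mice in blue, group means as short lines and RA mouse F1 ringed. F1 lies lowest in AT2 cells (Cd74 at 23.9), gCap cells (1.45) and alveolar macrophages (2.26) and highest in B cells (183).

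Dendritic cells and M macrophages were too few to be among the 22 types tested for smoke. Of those types, B cells were the one in which class II genes were lower in CS mice without overlap. Cd74 was 107, 108, 115 and 94.4 in CS mice and 183, 157, 150 and 142 in RA mice, so every CS mouse lay below every RA mouse. The ratio of the means was 0.671 and the log2 difference -0.57 (SE 0.0986, limma unadjusted p = 1.05e-04, adjusted p = 0.219), the third smallest unadjusted p of the 6,244 genes tested in B cells. By exact permutation the two-sided p was 0.0286, the smallest these numbers of mice allow. H2-Ab1 (-0.56, SE 0.172), H2-Eb1 (-0.48, SE 0.157) and H2-Aa (-0.44, SE 0.131) did not overlap either, also with exact p = 0.0286, beside 3.62% of all genes that did not overlap and were lower in CS, and their adjusted p-values were 0.326 to 0.332. No gene of the type was called (0%, and 13.2% at an unadjusted p under 0.05). In the untested cDC2, with 6 to 22 cells per mouse, Cd74 was 153, 129, 208 and 132 in CS mice and 292, 182, 142 and 249 in RA mice. In cDC1, with 6 to 13 cells per mouse, Cd74 overlapped too (168 to 267 and 245 to 279). There H2-DMa was 6.53 to 10.3 in CS mice and 10.8 to 11.8 in RA mice, and H2-DMb1 6.35 to 8.14 and 8.18 to 10.9.

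H2-DMa in B cells was 2.59, 2.48, 2.93 and 2.06 in CS mice and 4.91, 3.16, 3.13 and 2.899 in RA mice. Only the highest CS and the lowest RA mouse overlapped, and the log2 difference was -0.35 (SE 0.140, limma adjusted p = 0.359; ratio of the means 0.713, beside 0.729 for H2-Aa). H2-DMb1 was at -0.10 (SE 0.103). Ciita was 0.867, 0.872, 1.29 and 0.981 in CS mice and 1.22, 0.685, 0.848 and 1.27 in RA mice, a log2 difference of 0.00 (SE 0.109). H2-DMb2, a further class II chain, was 1.85 to 3.02 in CS mice and 3.61 to 5.42 in RA mice (log2 difference -0.52, SE 0.143, limma adjusted p = 0.301). The further chains H2-Oa (-0.16, SE 0.117), H2-Ob (-0.15, SE 0.0958) and H2-Eb2 (-0.09, SE 0.0816) overlapped. The B cell markers Cd79a (-0.40, SE 0.127) and Cd79b (-0.36, SE 0.126) also lay lower in CS mice, at adjusted p-values of 0.329 and 0.347, and Ms4a1 was at -0.12 (SE 0.146). Their part in the result was not tested. In B cells in which Cd79a was found, the difference in Cd74 was -0.54 (adjusted p = 0.0741) and that in H2-Aa -0.41. Without F1, the mouse with the highest level in B cells, the Cd74 difference was -0.49, that of H2-Aa -0.34, of H2-Ab1 -0.38, of H2-Eb1 -0.34 and of H2-DMa -0.22. The median B cell held 105 to 117 Cd74 transcripts per 10,000 in CS mice and 158 to 179 in RA mice, so the cells in the middle of each library were apart as well. In every mouse Cd74 was the second highest gene of B cells, with 0.944% to 1.83% of all transcripts, and quantile normalization, which gives genes of the same rank the same value, therefore set its difference to 0. H2-Aa was at -0.28 by that scaling.

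**Figure D4:**
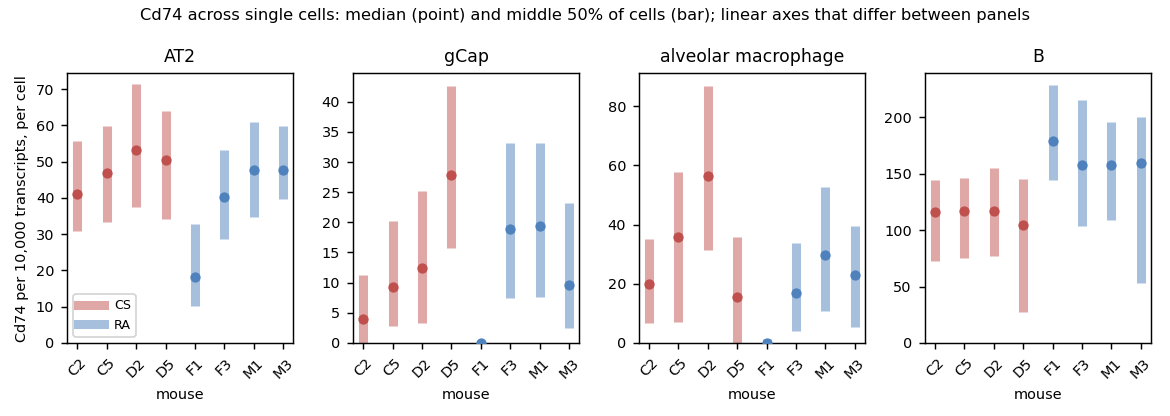
Cd74 per 10,000 transcripts in single cells of each mouse, as the median cell (point) and the range between the quartiles (bar), in AT2 cells, gCap cells, alveolar macrophages and B cells, on linear axes that differ between panels. In B cells the CS medians (105 to 117) lie below the RA medians (158 to 179), and the median of F1 is 0 in gCap cells and alveolar macrophages.

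Alveolar macrophages showed larger fitted differences with wider spread. Cd74 was 24.3, 40.4, 60.5 and 21.02 in CS mice and 2.26, 25.6, 32.0 and 28.3 in RA mice, which overlapped. The log2 difference was 1.02 (SE 0.503, limma adjusted p = 0.508), and 0.22 without F1. H2-Aa was at 1.04 (SE 0.434, adjusted p = 0.416), and 0.41 without F1. In this type 0.53% of 7,554 genes were called.

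**Figure D5:**
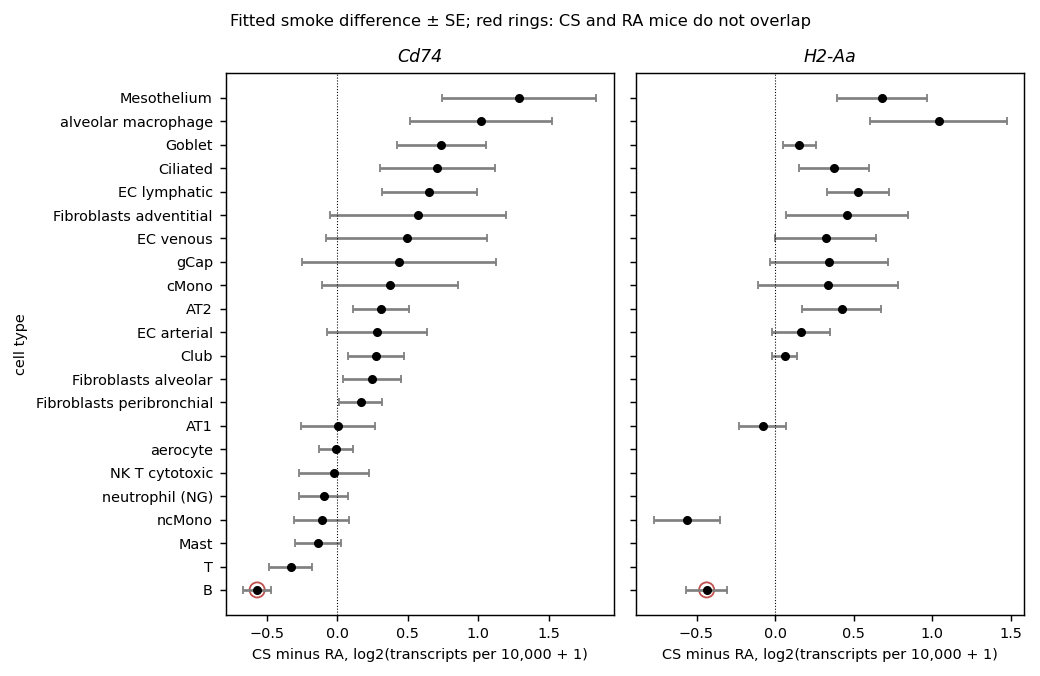
Fitted CS minus RA difference on the log2(transcripts per 10,000 + 1) scale, with its SE, for Cd74 (22 types) and H2-Aa (the types in which it was tested), ordered by Cd74. No adjusted p passed 0.05, and B cells, at -0.57 for Cd74, are the type whose CS and RA mice do not overlap (red rings).

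The smoke difference was also set between types within each mouse. Between AT2 and gCap cells no member passed (Cd74 -0.13, SE 0.530, limma adjusted p = 0.917). Between AT2 and B cells, that in Cd74 was 0.88 higher in AT2 cells (SE 0.264, unadjusted p = 0.00785, adjusted p = 0.346), and that in H2-Aa 0.86 higher (SE 0.341, adjusted p = 0.415). Between gCap and B cells it was 1.01 (SE 0.750, adjusted p = 0.637). No member passed in any of the 3 contrasts, in which 1.06%, 0.0106% and 0% of genes were called. Without F1, which was low in AT2 and gCap cells and high in B cells, the Cd74 values were 0.42 between AT2 and gCap cells, 0.57 between AT2 and B cells and 0.15 between gCap and B cells, H2-Aa between AT2 and B cells was 0.45, and again no member passed.

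RA mouse F1 stood apart in several cell types. Its Cd74 was 0.0697 of the mean of the other 3 RA mice in gCap cells, 0.0848 in venous endothelium, 0.0789 in alveolar macrophages, 0.2003 in classical monocytes and 0.511 in AT2 cells, but 1.23 in B cells. In gCap cells of F1, a Cd74 transcript was found in 21.8% of cells (Wilson 95% interval 20.1% to 23.7%, counting error only, 2075 cells), against 69.8% to 96.7% in the other 7 mice, and the median cell held 0. These shares were not thinned to equal depth. The F1 library had the lowest median of transcripts per cell, at 4254, against 4557 to 6473 in the others. Of 18 types in which at least 7 mice, F1 among them, had at least 20 cells, F1 was the lowest mouse for Cd74 in 8, for H2-Ab1 and H2-Eb1 in 9 and for H2-Aa in 10, and the highest in 1, B cells. Ciita in its gCap cells, at 0.104, was also the lowest of the 8 mice, the next being 0.486.

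Across the 8 mice and on the log2(value + 1) scale, Cd74 in gCap cells varied with Cd74 in venous endothelium (Pearson's r = 0.94, exact permutation p = 0.00119, adjusted over 6 relations 0.00714; Spearman's rho = 0.81, p = 0.0218, adjusted 0.0838) and in classical monocytes (r = 0.90, p = 0.00285, adjusted 0.00856; rho = 0.79, p = 0.0279, adjusted 0.0838). Without the 2 mice farthest from the gCap median on this scale, F1 and C2, r was 0.70 and 0.51. With AT2 cells r was 0.87 (permutation p = 0.0443, adjusted 0.0758; rho = 0.40, p = 0.327, adjusted 0.490) and turned to -0.25 without these mice, and with alveolar macrophages r was 0.80 (permutation p = 0.0829, adjusted 0.0994; rho = 0.14, p = 0.752, adjusted 0.752) and turned to -0.68, so both rested on them. With B cells r was -0.48 for gCap cells (permutation p = 0.230, adjusted 0.230; rho = -0.19, p = 0.665, adjusted 0.752) and -0.66 for AT2 cells (permutation p = 0.0505, adjusted 0.0758; rho = -0.45, p = 0.267, adjusted 0.490). The first was -0.11 without F1 and C2. The second was -0.27 without F1 and D2, the 2 mice farthest from the AT2 median. The 6 relations pool CS and RA mice, and each exposure alone has 4 mice, too few for a correlation.

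CS mouse D2 was high in ciliated, mesothelial and goblet cells, which otherwise held little class II. It was the highest mouse for Cd74 in 11 of 21 types. These included types with more class II, namely AT2 cells, alveolar macrophages and classical monocytes. In AT1 cells it was not the highest (3.42, against 4.24 in RA mouse F3). In ciliated cells, which line the airways, Cd74 was 0.214, 0.335, 4.98 and 0.632 in the CS mice C2, C5, D2 and D5 and 0.347, 0.0782, 0.245 and 0.220 in the RA mice, and 58.9% of the 508 ciliated cells of D2 held a transcript (Wilson 95% interval 54.5% to 63.1%) against 9.11% to 26.5% in the other mice. The immune markers summed to 0.221 in ciliated cells of D2 and to 0.105 to 0.181 in those of the other mice. In mesothelial cells D2 held 11.95 and the other mice with at least 20 cells 0.222 to 1.06, and in goblet cells 3.89 against 0.0315 to 1.07. Without D2, the Cd74 difference between CS and RA in ciliated cells was 0.18 on the log2 scale, beside 0.71 with it.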

How the data were processed

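Single-cell 3′ libraries of 8 mice were analysed. The authors aligned reads to GRCm38.p6 with STAR 2.7.3a (STARsolo) per the labels, filtered cells, annotated cell types and removed an estimate of free RNA, and deposited the resulting estimated counts of molecules per gene and cell, of which 1.28% of stored values were whole (tolerance 1e-06). A count model was therefore not used. Cells annotated as multiplets (1025) or cycling (7) were excluded, without a doublet caller, which left 20,330 CS and 19,744 RA cells. The study's text gives other cell numbers for each exposure, with RA the larger. Library totals were 31094695 to 52753531 molecules.

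Each cell was scaled to 10,000 transcripts and averaged per mouse and cell type. Levels were described from mice with at least 5 cells. Tests used at least 20 cells per mouse and at least 3 mice per exposure, genes found in at least 10% of cells of either group, log2(mean + 1), so that fold changes of low genes are understated, and limma 3.58.1 (R 4.3.3) with a trend and Benjamini-Hochberg adjustment over all genes tested, at 0.05. Comparisons of cell types had mouse as a block. Single values were tested by exact permutation or sign flips (scipy 1.17.1, Python 3.11.15). Intervals of shares (Wilson, 95%) cover counting error only. Fits were tested on simulated AT2 counts with changes larger than most smoke differences given here and no outlying mouse. Small differences and outlying mice were thus not covered.

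Each of the 4 sequencing lanes held 1 CS and 1 RA mouse, as the lane codes in the labels show. Deviations of lane partners from their group means correlated at -0.27 to 0.40. Alternatives varied the pseudocount, gene filter, scaling, cell minimum, lane block and the mice included. Named genes were the 7 members, genes of fixed pathway and marker lists, and the 10 genes most like the set across types. Of the pathway lists, 1 gene is not reported here. The members and lists were chosen with earlier results of these data known. H2-DMb1 and H2-DMb2, and H2-Eb1 and H2-Eb2, are near-copies whose counts are uncertain.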

Additional observations from a re-analysis of the deposited data

Results flagged for a closer look

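Of 70 groups of 4 mice looked at (a member in a cell type and exposure), 8 held 1 mouse far from the other 3, by Dixon's 95% critical value, where chance sets about 1 in 20 apart (3.5 of 70). The groups share mice and the members vary together, so the 8 are not independent, and whether they exceed chance was not tested. In ciliated cells of CS mice, D2 was apart in 5 members: Cd74 was 4.98 transcripts per 10,000 in D2 and 0.214 to 0.632 in the others, H2-Aa 1.58 and 0.0794 to 0.224, H2-Ab1 1.15 and 0.0370 to 0.157, H2-Eb1 0.8294 and 0.0459 to 0.132, and Ciita 0.0680 and 0.0144 to 0.0155. In RA mice, H2-Aa in ciliated cells was 0.0424 in F3 and 0.0891 to 0.0954 in the others. H2-DMb1 in gCap cells was 0.535 in RA mouse F1 and 1.46 to 1.57 in the others. H2-DMa in B cells was 4.91 in F1 and 2.899 to 3.16 in the others.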

How the results depend on the processing

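Of the differences between CS and RA in the 45 combinations of member and type described singly, 369 of 372 alternative values that left out no mouse kept their direction and their side of the threshold, as did 366 of 392 of those between cell types and all 12 ratios. The count of genes called between CS and RA in gCap cells was 672, but 0 with no gene filter, 1249 with summed counts, 0 with lane as a replicate block, and 0 to 657 with each mouse left out. The lane block changed no call of a member. Summed counts called 1 member over all types. Without the mouse block, 3 members were called between gCap cells and alveolar macrophages in place of 5, and after quantile normalization 7 in place of 4 between AT2 and gCap cells. Quantile normalization set Cd74 in B cells to 0 and turned Ciita there to -0.023, H2-DMa and H2-DMb1 between AT2 and gCap cells to 0.16 and 0.22 and H2-Eb1 between AT2 cells and alveolar macrophages to 0.22. That last value was 0.054 with a pseudocount of 0.1 and 0.15 in RA mice. In CS mice, H2-Aa and H2-Ab1 between these types were -0.023 and -0.11 and H2-DMb1 between AT2 and gCap cells 0.0082. In RA mice H2-Eb1 between gCap cells and alveolar macrophages was 0.043. The causes were not tested.

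With each mouse left out, 39 of all 101 combinations of member and type turned at least once and 0 were called. Among the 45 described singly and the differences between types, 12 turned. In gCap cells, CS minus RA ran from -0.35 to 0.75 for Cd74, -0.072 to 0.54 for H2-Aa, -0.11 to 0.43 for H2-Ab1, -0.20 to 0.41 for H2-Eb1, -0.092 to 0.21 for H2-DMa and -0.13 to 0.14 for H2-DMb1. It ran from -0.076 to 0.067 for Ciita in B cells, -0.10 to 0.27 for H2-DMa in alveolar macrophages, -0.076 to 0.055 for H2-DMb1 in mesothelial cells and -0.021 to 0.081 for H2-Eb1 in goblet cells. Between AT2 cells and alveolar macrophages it ran from -0.0068 to 0.28 for H2-Ab1 and -0.24 to 0.066 for H2-Eb1. Without F1, an alternative chosen after seeing the data, smoke differences between types turned for Cd74 (-0.13 to 0.42) and Ciita (-0.092 to 0.022) between AT2 and gCap cells, Ciita between AT2 and B cells (0.074 to -0.0080), and Ciita (0.17 to -0.030) and H2-DMb1 (0.15 to -0.074) between gCap and B cells. cDC2 and M macrophages could not be fitted at 20 cells per mouse. With 4 mice per exposure and 31 to 112 alveolar macrophages per mouse, small differences may have been missed, which was not tested.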
